A study of Danio rerio with 6 samples.

Results

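Sox9a, nr0b1, ftz-f1 and cyp17a1 are 3 transcription factors and 1 steroid enzyme with roles in the gonad. They were chosen by their transcript identifiers, and all 4 were found among the 13927 transcripts of the deposited table, each as the 1 transcript of its assembled locus there. The series holds whole-body RNA of 6 fish, 2 of them adult males, 2 adult females and 2 juveniles aged 28 days, all euthanised with tricaine by the breeder. No fish was treated, 1 library is 1 fish, and no strain, no genotype and no age of the adults are given. The juveniles have no sex in the labels. The authors assumed from expression patterns that both were male, which was not tested here. In the table the juveniles are numbered 2 and 3, and those numbers are used here.

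Sox9 proteins are HMG-box transcription factors that drive Sertoli cell development in the mammalian testis, and they are also needed for cartilage. Ftz-f1, also named nr5a2 or ff1a, encodes a nuclear receptor of the NR5A family. In mammals, NR5A receptors bind the promoters of steroid-forming enzymes and activate them, and Dax1, the product of nr0b1, represses that activity. Cyp17a1 is an enzyme of this kind and carries out the hydroxylase and lyase steps that turn progestogens into androgens, which the gonadal aromatase can then turn into oestrogens.

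The values are read counts that the authors divided by a size factor for each fish, called normalised counts here, with 13980849 to 18635087 reads of the table in each fish. The table gives identifiers of the assembly and no gene names. The 4 names rest on the values per fish that the study printed for these genes. For sox9a the value printed for male 1 differs from that of the table, so its identity is less certain than that of the other 3. Every transcript in the table passed the authors' own threshold (an adjusted p under 0.05) in a comparison that tracks the ratio of females to juveniles, so a difference between these groups was a condition of being listed. The study chose these genes for a difference between the sexes, and the paper gives expression in juveniles as a further condition. Differences of females from males and from juveniles are therefore given as values with no test, and the juveniles were tested against the males. Neither choice used that comparison directly. Juvenile values entered the choice of the table and of the genes, and male values that of the genes. The fold changes of juveniles against males are therefore not free of selection. In whole-body RNA, fewer cells of a type and less RNA per cell cannot be told apart. The paper puts the highest nr0b1 levels in the liver and lists further organs for it. It places ftz-f1 also in the digestive and nervous systems and cyp17a1 also in the brain. Sox9 proteins have a role in cartilage, as said above. The values of the 4 genes here are therefore not gonad levels. The libraries hold RNA of several organs, with 11988 to 24586 normalised counts of the alpha globin gene hbaa1 and 53648 to 161111 of the apolipoprotein gene apobb1. The oocyte gene bmp15 had 5940 and 7429 normalised counts in the females and 2.12 to 31.1 in the other fish.

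Sox9a (transcript MSTRG.15807.1) was the 1 gene of the 4 that was highest in juveniles and lowest in adult females. It had 1084 normalised counts in juvenile 2 and 1059 in juvenile 3, against 875 in male 1 and 634 in male 2, and 283 in female 1 and 400.2 in female 2. Each juvenile was above each male and each male above each female, an order without overlap that 24.3% of the 13748 transcripts tested shared. The group means were 1071 ± 17.6 in juveniles, 755 ± 170 in males and 342 ± 82.7 in females (SD, n = 2). The male mean was 2.21 times and the juvenile mean 3.13 times the female mean. These ratios were larger with the 4 scalings estimated on the table, at 3.29 to 4.48 for males and 3.89 to 6.02 for juveniles. The males and females stayed apart with each of them, while scaling by table totals let the juveniles and males overlap. The juveniles differed by 1.02-fold from each other, which is within counting error, since the interval of their ratio was 0.940 to 1.11. All intervals of ratios are exact binomial intervals at 95% and cover counting error only.

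Ftz-f1 (MSTRG.28175.1) had the reverse order and the smallest differences. It had 674 normalised counts in female 1 and 549.6 in female 2, 347 in male 1 and 402 in male 2, and 287 in juvenile 2 and 317 in juvenile 3. Females were above males and males above juveniles with no overlap, as in 19.5% of the transcripts tested. The lowest male was 1.10 times the highest juvenile, so these neighbours in the order were close, and their counting intervals (313 to 383 normalised counts in male 1 and 284 to 352 in juvenile 3) overlapped. The female mean of 612 ± 88.3 was 1.63 times the male mean of 374 ± 38.9 and 2.03 times the juvenile mean of 302 ± 21.0 (SD, n = 2). Both ratios depended on the size factors. That to males was 0.939 after scaling by table totals and 0.813 after upper-quartile scaling, and the females were above both males with none of the 4 other scalings. That to juveniles was 1.07 to 1.64, and after upper-quartile scaling female 2, at 339, was below juvenile 2 (351) and juvenile 3 (384).

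Nr0b1 (MSTRG.15275.1) separated the females from the juveniles but not the males from either. The females had 733 and 602 normalised counts and the juveniles 224 and 146. Male 1, with 563, was next to female 2, and male 2, with 143.04, was next to juvenile 3. Both females were above both males, as in 46.6% of the transcripts tested, by a margin of 1.07 between female 2 and male 1. The counting intervals of these 2 fish (546 to 662 and 520.0 to 609) overlapped. Male 2 and juvenile 3 did not differ beyond counting error either (123 to 166 and 124 to 171). The male mean of 353 ± 297 (SD, n = 2) therefore lies in a gap where no male was. The female mean was 1.89 times the male mean, 4.66 times without male 1 and 1.19 times without male 2. With upper-quartile scaling the ratio was 0.942, and the females and males overlapped with each of the 4 other scalings. Relative to the juveniles, the female mean was 3.60-fold as deposited and 1.89-fold to 2.94-fold with those scalings, under which both females stayed above both juveniles.

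Cyp17a1 (MSTRG.17444.1) had the widest range. Female 1 had 5786 and female 2 had 6642 normalised counts, male 1 had 251 and male 2 had 91.9, and juvenile 2 had 24.3 and juvenile 3 had 18.5. The juvenile values rest on 23 and 20 reads, with exact Poisson intervals at 95% of 15.4 to 36.5 and 11.3 to 28.6 normalised counts. The order of females, males and juveniles was that of ftz-f1, again with no overlap. The lowest female was 23.1 times the highest male and the lowest male 3.78 times the highest juvenile. The female mean of 6214 ± 605 was 36.3 times the male mean of 171 ± 112 (SD, n = 2) and 67.6 times male 2 alone. The juvenile mean was 21.4 ± 4.12 (SD, n = 2), and the female mean was 290.1 times it. Across the other scalings the ratio to males was 18.0 to 24.4 and that to juveniles 151 to 235, and the order without overlap held in each.

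**Figure D1:**
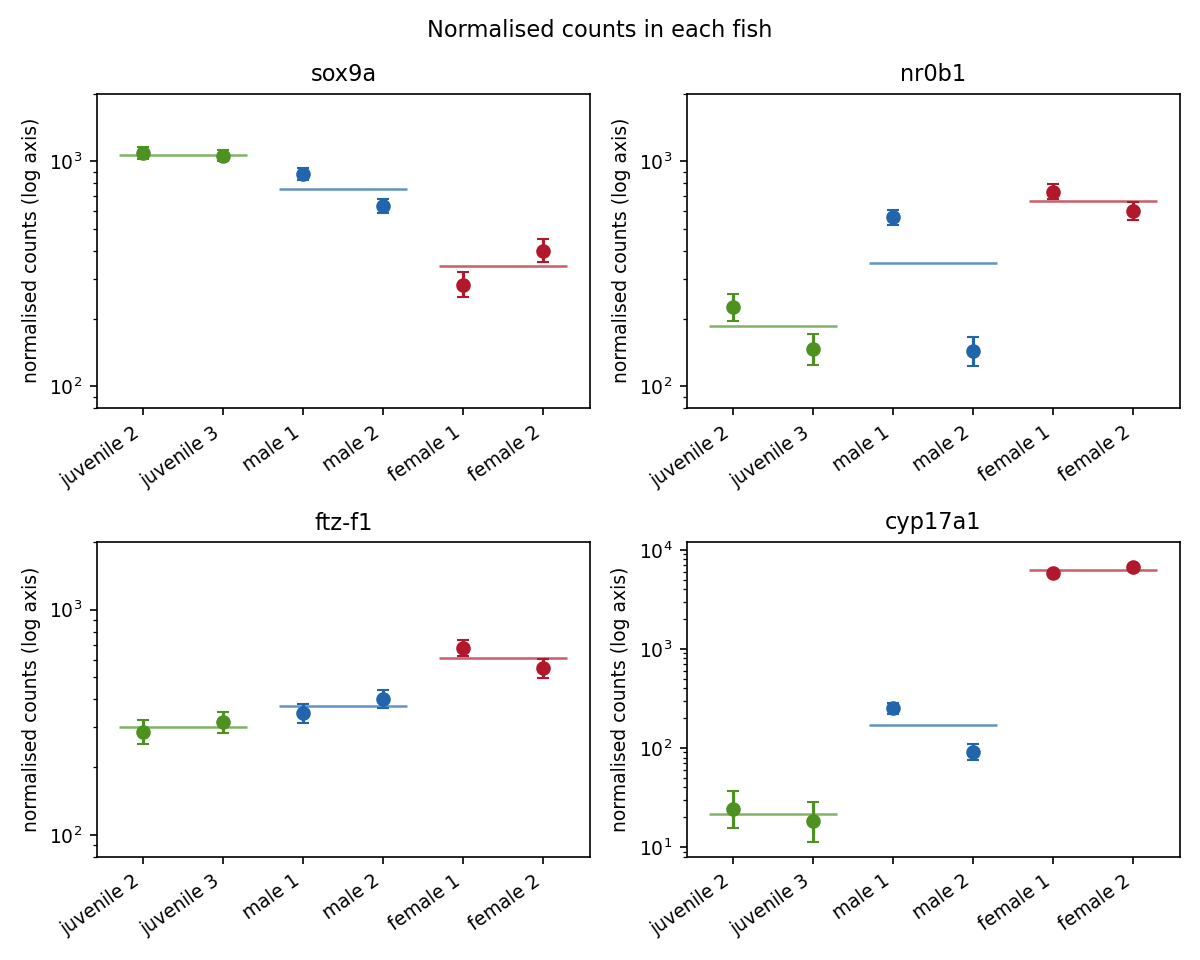
Normalised counts of the 4 genes in each of the 6 fish, on log axes whose range is wider for cyp17a1. Points are fish, bars are exact Poisson intervals at 95% and lines are group means. Sox9a falls from 1084 in juvenile 2 to 283 in female 1, cyp17a1 spans 18.5 to 6642, and the nr0b1 values of the males (563 and 143.04) lie apart.

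With the deposited size factors, both females were thus above both males for 3 of the 4 genes, where 46.6% of the transcripts tested had this order, and below them for sox9a, where 37.6% had the opposite order. The same 3 genes had both females above both juveniles, as in 56.6% of the transcripts tested, and sox9a had both juveniles above both females, as in 43.1%. Of these orders, that of females and males held for cyp17a1 and sox9a with all 4 other scalings, and that of females and juveniles held with them for every gene but ftz-f1. Shares of this size show nothing particular to the 4 genes.

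Against the adult males, cyp17a1 was lower in the juveniles and the 3 transcription factors did not pass the test. The test was limma-trend on log2 (normalised count + 1) over 13748 transcripts with Benjamini-Hochberg adjustment. It called 34.8% of them at an adjusted p under 0.05, with 18.6% higher and 16.2% lower in juveniles. The log2 fold change of cyp17a1 in juveniles against males was -2.78 (standard error 0.48, adjusted p = 0.00823 from limma), and each juvenile was below each male. The call ended without juvenile 3 (adjusted p = 0.0688 from limma) and when the females were not in the model (0.0529). All 4 genes passed the filter on low values. Their median log2 fold change was -0.48, beside 0.11 over all transcripts tested. The genes went in both directions, with sox9a at 0.52, so this median shows no common change.

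Sox9a was above the males in both juveniles, as in 41.1% of the transcripts tested. Its log2 fold change was 0.52 (95% interval -0.08 to 1.12, adjusted p = 0.145 from limma), and after scaling by table totals it was 0.03. For ftz-f1 it was -0.31 (95% interval -0.82 to 0.20, adjusted p = 0.288). Both males were above both juveniles for ftz-f1 and for cyp17a1, as in 31.6% of the transcripts tested. After scaling by table totals ftz-f1 passed the test (log2 fold change -0.81, adjusted p = 0.0316 from limma). An interval that spans 0 does not show that juveniles and males were alike.

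Nr0b1 gave no stable direction between juveniles and males. With all fish its log2 fold change was -0.65 (95% interval -2.16 to 0.87, adjusted p = 0.444 from limma). When male 2 was left out it was -1.63 and passed the test (adjusted p = 0.0321 from limma). When male 1 was left out it turned to 0.34 (adjusted p = 0.545).

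**Figure D2:**
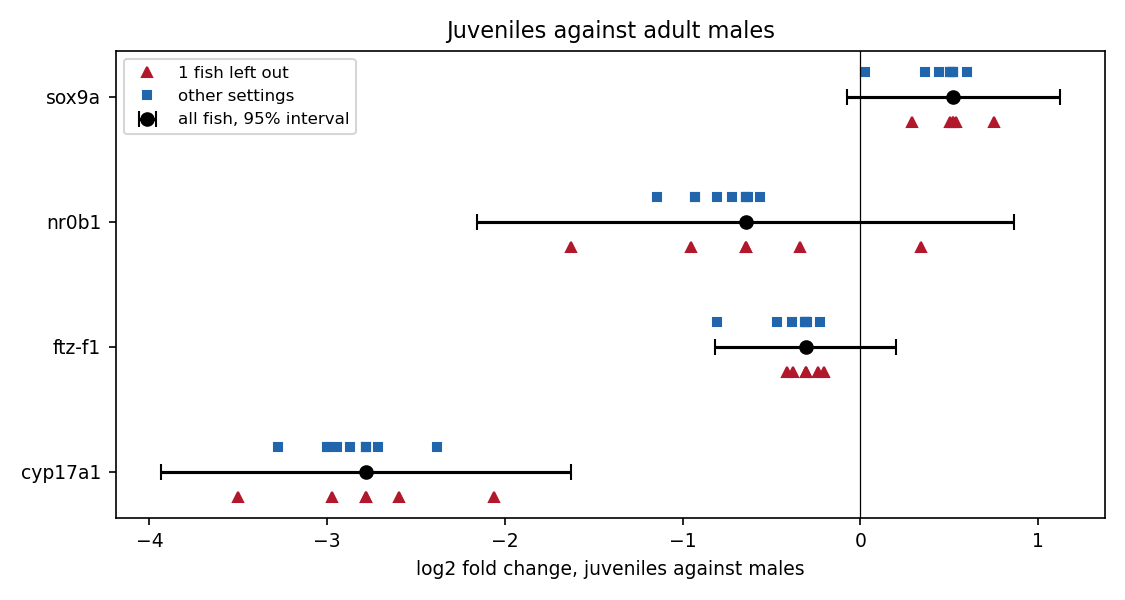
Log2 fold change in juveniles against adult males for each gene. Black points with bars are the estimates from all 6 fish with 95% intervals, red triangles the estimates with 1 fish left out, and blue squares the other settings. Cyp17a1 stays below 0 (-3.50 to -2.06 with 1 fish left out), while nr0b1 runs from -1.63 to 0.34.

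The ratio of reads of 1 gene to reads of another in the same fish does not depend on the size factors. Since transcript lengths were not used, such a ratio is compared here between fish and not read as which gene had more RNA. The ratio of cyp17a1 to sox9a had the widest range of the 6 pairs, 1168-fold over the 6 fish. It was 20.4 and 16.6 in the females, 0.287 and 0.145 in the males and 0.0225 and 0.0175 in the juveniles. No groups overlapped. On the log2 scale its mean was 6.50 higher in females than in males, the difference of juveniles from males was -3.36, and the spread within a group was at most 0.70 (SD, n = 2).

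Cyp17a1 also moved apart from both nuclear receptors. Its ratio to nr0b1 was 7.90 and 11.04 in the females, 0.445 and 0.642 in the males and 0.108 and 0.127 in the juveniles. Its ratio to ftz-f1 was 8.58 and 12.1 in the females, 0.723 and 0.229 in the males and 0.0849 and 0.0585 in the juveniles. In geometric means, the females had 17.5 times the male ratio of cyp17a1 to nr0b1 and 25.0 times that of cyp17a1 to ftz-f1. The female to male ratio of the enzyme was therefore above that of each transcription factor whatever size factors are used.

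Among the transcription factors, the ratio of sox9a to ftz-f1 kept the 3 groups apart. It was 3.78 and 3.35 in the juveniles, 2.52 and 1.58 in the males and 0.420 and 0.728 in the females, and the exact binomial intervals of neighbouring groups did not overlap (2.96 to 3.79 in juvenile 3 and 2.24 to 2.84 in male 1). Sox9a was therefore higher relative to ftz-f1 in both males than in both females, although the level of ftz-f1 alone changed its order with the scaling. The ratio of nr0b1 to sox9a was 2.59 and 1.504 in the females, 0.643 and 0.225 in the males and 0.207 and 0.138 in the juveniles. There male 2 and juvenile 2 were within counting error of each other (0.191 to 0.265 and 0.178 to 0.240).

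Nr0b1 against ftz-f1, the corepressor against a receptor of the family it represses in mammals, gave the narrowest range, 4.56-fold over the 6 fish. The females were nearly equal, with 1.09 in each. The males were the highest and the lowest of all fish, with 1.62 in male 1 and 0.356 in male 2, and the juveniles had 0.782 and 0.462. The groups overlapped, and the mean of the log2 ratio in males (-0.40 ± 1.55, SD, n = 2) could not be told from that in females (0.12).

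**Figure D3:**
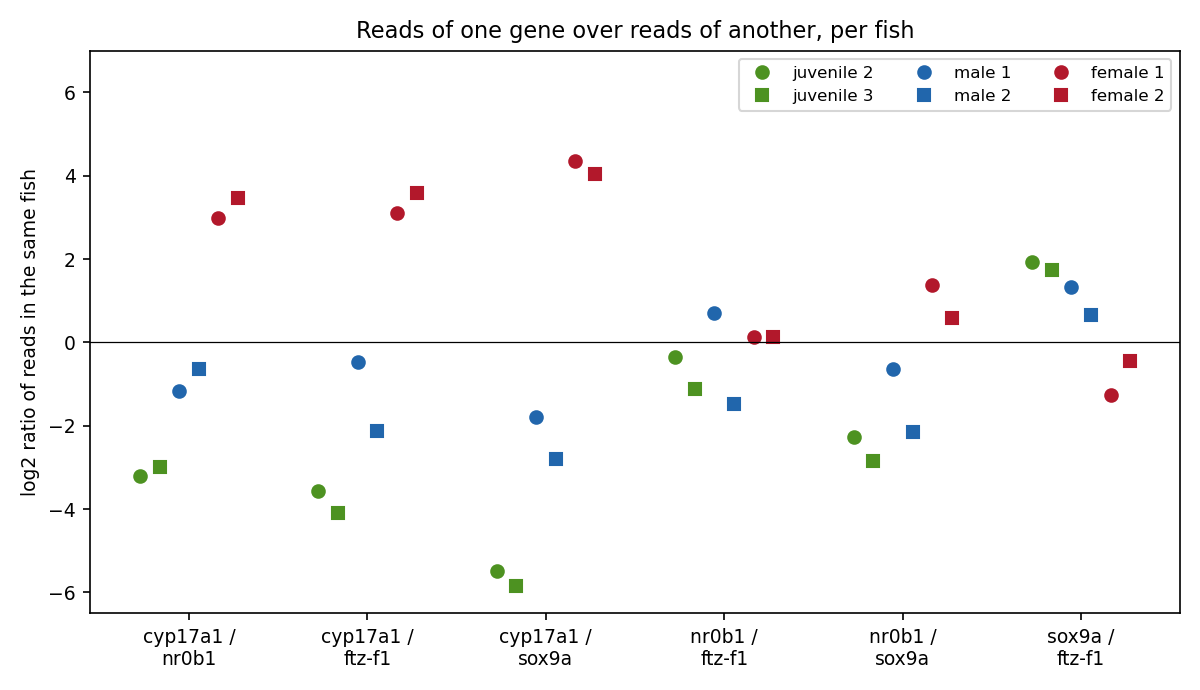
Log2 ratio of the reads of 1 gene to those of another in the same fish for all 6 pairs, with green for juveniles, blue for males and red for females. The 3 pairs with cyp17a1 put the females far above the other fish, with ratios of reads from 7.90 to 20.4, and the pair of nr0b1 and ftz-f1 shows male 1 (1.62) and male 2 (0.356) on either side of the females.

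The adult males differed from each other in nr0b1 and cyp17a1 far more than in ftz-f1 and sox9a. Nr0b1 was 3.94 times higher in male 1 than in male 2 (interval 3.33 to 4.67), from 633 and 179 reads. Cyp17a1 was 2.73 times higher (2.19 to 3.42), from 282 and 115 reads. Sox9a was 1.38 times higher (1.25 to 1.52), and ftz-f1 was lower in male 1, at 0.863 of male 2 (0.754 to 0.987). With 1 fish on each side, these ratios compare animals and have no replicate check.

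Among the 9528 transcripts whose mean over the fish was 100 normalised counts or more, the median ratio of male 1 to male 2 was 1.00, with 0.523 and 2.31 as the 5th and 95th percentiles. At least as far apart in either direction as nr0b1 were 2.99% of these transcripts, as cyp17a1 5.57%, as sox9a 33.1% and as ftz-f1 60.6%. The difference between the males in cyp17a1 and nr0b1 went in the same direction, and the ratio of these genes to each other changed by 0.693-fold from male 2 to male 1. Sox9a went that way too, and 49.9% of the 9528 transcripts were higher in male 1, so a shared direction is not particular to this pair. Beyond the common direction, the pair of fish allows no correlation. Between the females, 47.6% of the transcripts were as far apart as nr0b1, 60.1% as cyp17a1, 46.1% as ftz-f1 and 27.2% as sox9a. Between the juveniles nr0b1 was 1.53 times higher in juvenile 2 (interval 1.24 to 1.90), as far apart as 17.0% of the transcripts.

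Of the 5 steroid and ovarian genes set beside them, 3 were higher in male 1, as were 49.9% of the 9528 transcripts, and 2 had no reads in either male. The oocyte growth factor genes gdf9 and bmp15 were 6.01 times (interval 2.28 to 20.0) and 4.33 times (2.04 to 10.2) higher in male 1, from 27 and 5 reads and from 35 and 9 reads. Zbp3, which is not among the 5 genes but which the paper places in oocytes, went the other way. Male 1 had 0.834 of its level in male 2 (interval 0.783 to 0.887), from 1767 and 2359 reads. Igf3, a gonadal growth factor gene, had 5 and 2 reads, which fixes no direction. The aromatase gene cyp19a1a and the yolk gene vtg1 were at 0 reads in both males. For vtg1 this is the value of transcript MSTRG.28203.104 alone, and other transcripts of its locus were not looked at. Cyp19a1a, vtg1 and igf3 were below the mean of 100 normalised counts that the 9528 transcripts reached, so the share of 49.9% does not cover them. Gdf9 and bmp15 reached that mean only through the females. The share is therefore no matched background for any of the 5 genes in the males. A floor of 3 reads is 2.67 normalised counts in male 1 and 2.40 in male 2. The part of these transcripts in the difference between the males was not tested. All 5 genes had both females above both males, as in 46.6% of the transcripts tested. They passed the filter on low values through the females, and with so few reads in the juveniles and males no count of calls or median is given for this list. Bmp15 had 2 and 4 reads in the juveniles, against 35 and 9 in the males, and no test result is given for it either.

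**Figure D4:**
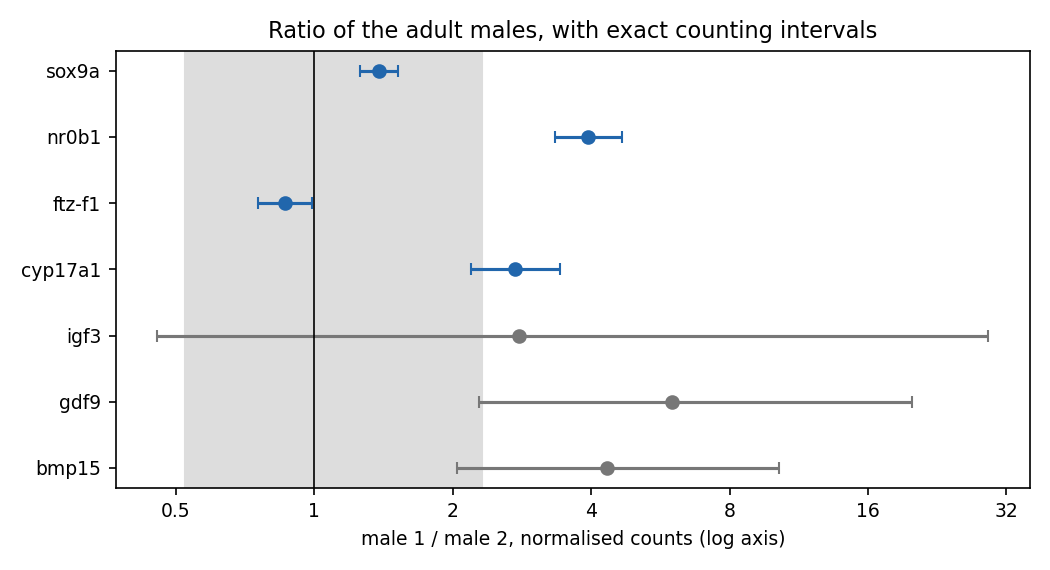
Ratio of the normalised counts of male 1 to those of male 2 on a log axis, with exact binomial intervals at 95%, for the 4 genes in blue and 3 ovarian genes in grey. The grey band holds the transcripts of the table between the 5th and 95th percentiles (0.523 to 2.31). Nr0b1 (3.94) and cyp17a1 (2.73) lie to the right of the band, sox9a (1.38) and ftz-f1 (0.863) inside it.

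The likeness of profiles was measured as the root mean square distance of log2 (normalised count + 1) over the 6 fish after centring each gene on its mean. No gene of the 4 was close to another by this distance, which depends on the size of a gene's range as well as on the shape of its profile. The nearest pair was nr0b1 and ftz-f1, at a distance of 0.75, and sox9a and cyp17a1 were the farthest apart at 4.08. Pearson's r over the 6 fish was -0.996 for sox9a and ftz-f1, -0.928 for sox9a and cyp17a1 and -0.667 for sox9a and nr0b1. It was 0.934 for ftz-f1 and cyp17a1, 0.859 for nr0b1 and cyp17a1 and 0.681 for nr0b1 and ftz-f1. These coefficients are descriptions, since the 6 fish fall into 3 groups on which the table and the genes were chosen. All distances and coefficients of profiles were computed with the deposited size factors only. The order of females and males in ftz-f1 and nr0b1 changed with the scaling, so the r of -0.996 is not shown to hold under another scaling.

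Among 17 other genes of the study identified in the table, apobb1 had the profile nearest to sox9a (distance 0.23, r = 0.947). Zbp3 was nearest to ftz-f1 (0.19, r = 0.902) and to nr0b1 (0.79, r = 0.655), and the cyclin gene ccnb1 was nearest to cyp17a1 (1.10, r = 0.947). Over the other 9524 transcripts of that level, the nearest to sox9a was MSTRG.31335.1 (distance 0.09, r = 0.998). The nearest to nr0b1 was MSTRG.36390.1 (0.26, r = 0.966) and the nearest to cyp17a1 was MSTRG.31804.1 (0.37, r = 0.995). The table gives no gene names for these transcripts. MSTRG.31804.1 had 397 and 451 normalised counts in the females, 8.89 and 3.20 in the males and 1.06 and 0 in the juveniles. It reached that level only through the females. Its juvenile values are below the floor of 3 reads, so its distance and r depend there on the count added before the log. Like nr0b1, MSTRG.36390.1 was higher in male 1, with 224 normalised counts, than in male 2, with 63.1. It was picked for its nearness to nr0b1 over all fish, both males included. The shared difference between the males therefore follows from the choice and is no separate finding. The nearest transcript to ftz-f1 was at a distance of 0.06.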

How the data were processed

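RNA of 6 whole zebrafish was sequenced on an Illumina platform. The authors mapped reads to GRCz11 with HISAT2 2.1.0, assembled transcripts with StringTie 1.3.4, counted reads with featureCounts 1.6.3 and normalised and compared them with DESeq2 2.11.40.2, as given in the paper and in the submitters' processing notes. In the deposited table the signal of a transcript is its read count over the size factor of the fish, which the authors took from the median of ratios. The table also holds the authors' mean, log2 fold changes, standard errors, Wald statistics and p-values of 1 comparison, a difference of means and a selection mark, of which none was used as a result.

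Whole reads could be recovered for 100% of values (tolerance 0.01 read) and gave the counting intervals. They do not give library depth, since the table is a selection. Juveniles were assigned to their group but not to a label number. Limma-trend (limma 3.58.1, R 4.3.3) was fitted to log2 (normalised count + 1) of 13748 transcripts (filter: 10 or more normalised counts in 2 or more fish), with 3 groups and 3 residual degrees of freedom. Every adjusted p comes from limma unless edgeR 4.0.16 or DESeq2 1.42.0 is named. Such fold changes are too small for weak transcripts. Selection of the table on females against juveniles may make standard errors too low and may bias the fold changes of juveniles against males. Other computations used Python 3.11.15, numpy 2.4.6, pandas 2.3.3 and scipy 1.17.1. Alternatives were other scalings estimated on the table, a pseudocount of 10, other filters, other tools, fewer groups and leaving out each fish. The named genes are the 4 genes, 5 steroid and ovarian genes of the study and the nearest profiles. Genes and lists were chosen with earlier results of these data known.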

Additional observations from a re-analysis of the deposited data

How the results depend on the processing

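Of the scalings estimated on the table, TMM and the median of ratios assume that most of its transcripts are equal between fish. The selection of the table on females against juveniles breaks this. The other scalings set the total or the upper quartile of the table equal between fish, which a selected table need not meet. On the log2 scale the scalings raised males relative to females by 0.57 (TMM), 0.59 (median of ratios), 0.80 (total of the table) and 1.01 (upper quartile). In that order the log2 female to male ratio was -1.72, -1.73, -1.96 and -2.16 for sox9a (-1.14 as deposited). For ftz-f1 it was 0.14, 0.13, -0.090 and -0.30 (0.71 as deposited), and for nr0b1 it turned to -0.087 with the upper quartile (0.92 as deposited). For cyp17a1 it fell to between 4.17 and 4.61 (5.18 as deposited). With 1 fish left out this ratio was -1.41 to -0.89 for sox9a, 0.55 to 0.85 for ftz-f1, 0.24 to 2.22 for nr0b1 and 4.63 to 6.08 for cyp17a1. The log2 ratio of reads of nr0b1 to ftz-f1 in females minus males was 0.52, -0.57 without male 2 and 1.62 without male 1.

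In juveniles against males, the log2 fold change of cyp17a1 was -3.50 to -2.06 with 1 fish left out (adjusted p from 0.00539 to 0.0688, limma). Without the females in the model it was -2.78 (0.0529), and the adjusted p over the other settings was lowest with DESeq2 (1.45e-07). Ftz-f1 was -0.81 with the total of the table (0.0316) and -0.41 to -0.20 with 1 fish left out. Nr0b1 was -1.63 to 0.34 and sox9a 0.29 to 0.75 with 1 fish left out. The total of the table lowered juveniles relative to males by 0.50 on the log2 scale. With it 1361 transcripts were called higher and 4125 lower in juveniles, against 2561 and 2228 as deposited, and with 1 fish left out 569 to 2062 were higher and 1034 to 1795 lower. The causes of these changes were not tested. Leaving out a fish changes the number of fish and which fish remain together. The ratios of male 1 to male 2 moved by less than counting error under every scaling. No paired analysis was possible because 1 library is 1 fish, and the fish numbers are not stated to link fish of different groups. The juveniles of the table also carry numbers that share only 1 with the males and are not matched to the labels. With 2 fish in a group, the spread within groups limits every comparison.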
